A study of Mus musculus with 22 samples.

Results

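The 10 genes described here write, read or erase N6-methyladenosine (m6A), the most common internal modification of messenger RNA. They were taken by name, *Mettl3*, *Mettl14*, *Wtap*, *Ythdf1*, *Ythdf2*, *Ythdf3*, *Ythdc1*, *Ythdc2*, *Fto* and *Alkbh5*, and all 10 were found among the 55487 gene identifiers of both count tables. The writers are METTL3, the catalytic methyltransferase, METTL14, its RNA-binding partner, and WTAP, which holds the pair in nuclear speckles. The readers carry a YTH domain that binds m6A: YTHDF1, YTHDF2 and YTHDF3 in the cytoplasm, where they are linked to translation and decay of marked mRNA, YTHDC1 in the nucleus, where it is linked to splicing and export, and YTHDC2, an RNA helicase. FTO and ALKBH5 are the demethylases, and *FTO* is also known for its variants associated with body weight. In brown adipose tissue (BAT), which burns fuel for heat, METTL3 is known to be needed for the tissue to mature after birth.

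RNA of BAT from 22 C57BL/6 mice, all male by their labels, was sequenced, 1 library per mouse. The untreated cohort held 5 wild-type (WT) and 5 CPEB2 knockout (KO) mice of 21 to 25 weeks, without virus and food-deprived for some hours. The KO is global, so the deletion is in every tissue and not only in fat. CPEB2 is a protein that binds cytoplasmic polyadenylation elements in 3′ untranslated regions (UTRs) and controls translation. In the AAV cohort, 3 mice each of WT and KO received an adeno-associated virus expressing GFP (WT + AAV-GFP, KO + AAV-GFP) and 3 each one expressing flag-tagged PRDM16, the transcription factor of brown fat identity (WT + AAV-PRDM16, KO + AAV-PRDM16). The virus was injected into the BAT at 16 weeks in 30 µl and the tissue was collected 9 weeks later, at 25 weeks. Levels are given as CPM, the count of a gene relative to the total of its library after TMM scaling, which was done within each cohort, so a level in one cohort and a level in the other are not on one scale.

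The untreated libraries held 55320927 to 162721202 counts each and the AAV libraries 61636889 to 143005309, and the lowest count of any of the 10 genes in a library was 112, for *Ythdc2*. *Cpeb2*, the deleted gene, stood at 11.7, 9.0, 7.69, 12.4 and 14.3 CPM in untreated WT mice 1 to 5 and at 11.7, 5.27, 2.86, 5.78 and 2.1 CPM in the mice labelled KO 1 to 5. The library labelled KO mouse 1 was thus within the WT range, and directions in the untreated cohort are those of the labels. In the AAV cohort, the 6 libraries labelled KO stood at 4.33 to 5.55 CPM and the 6 WT libraries at 10.5 to 14.0 CPM. *Prdm16* was at 122, 119 and 45.9 CPM in WT + AAV-PRDM16 and at 69.2, 128 and 73.6 CPM in KO + AAV-PRDM16. Under AAV-GFP it was at 23.9 to 40.2 CPM, so WT + AAV-PRDM16 replicate 3 was little above the highest of these. All 8 brown fat markers were detected, with a summed level of 3216 CPM or more in every library. The summed level of 8 mature skeletal muscle markers ran from 6.79 to 5821 CPM over the untreated libraries, with 2941 CPM in WT mouse 3 and 5232, 5821 and 1011 CPM in KO mice 1, 2 and 5, and from 0.374 to 84.4 CPM in the AAV cohort. The 4 Y-linked transcripts summed to at most 1.17 CPM in 6 untreated libraries (WT mice 3 and 5, KO mice 1, 3, 4 and 5), although the labels give male mice, and to 77.1 CPM or more in all others. *Xist*, the transcript of the inactive X chromosome in females, reached 305 CPM in untreated WT and 219 CPM in untreated KO libraries, and at most 0.268 CPM in the AAV cohort.

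Since CPEB2 binds the motif UUUUAU, the 3′ UTR of 1 annotated transcript per gene was searched for it (TTTTAT as DNA, on the transcript's strand only). It was present in 6 of the 10 genes and in 48.7% of 20914 protein-coding genes. *Ythdf3* held 8 copies in 2877 bases, *Wtap* 5 in 672 bases and *Ythdf2* 3 in 2012 bases, and *Mettl14*, *Ythdc1* and *Ythdc2* held 1 each. Of genes with UTRs of like length (0.8 to 1.25 times theirs), 86.6%, 42.8% and 79.2% held at least 1 copy for the first 3. None was found in *Mettl3*, *Ythdf1*, *Fto* or *Alkbh5*. Other U-rich sequences, which the study also marked in the *Prdm16* 3′ UTR, were not searched for. The annotated UTRs of *Mettl3* and *Ythdf1* are short, at 141 and 272 bases, and among genes with UTRs of like length 10.9% and 22% held the motif. Those of the demethylases are long, at 2004 bases for *Fto* and 4097 for *Alkbh5*, and 79.0% and 91.5% of genes with UTRs of like length held it. The copy nearest to the annotated 3′ end is shown for 5 of these 6 genes, with the motif in capitals, from the GENCODE M21 transcripts of GRCm38. The sites lie in 3′ UTR exons, and a match is a sequence description and not a measured binding site.
*Mettl14*, chr3:123368324-123368353, minus strand: gggtaactccttTTTTATtttgctataact
*Wtap*, chr17:12966796-12966825, minus strand: aaacctaaataaacatTTTTATtacgactc
*Ythdf2*, chr4:132184996-132185025, minus strand: ctctgccaaactTTTTATtataaaatatat
*Ythdf3*, chr3:16216429-16216458, plus strand: tttatgtgggtaTTTTATttttaatggtat
*Ythdc1*, chr5:86836106-86836135, plus strand: ttgggttgactcTTTTATtggggcagaatg
The motif ended 8 bases before the annotated transcript end in *Wtap*, 39 in *Mettl14*, 96 in *Ythdf2*, 409 in *Ythdf3* and 534 in *Ythdc1*.

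To compare levels between genes, CPM were divided by the length of all annotated exons in kilobases. Over the AAV libraries, which were most alike, the genes fell into 4 bands that did not overlap over the 12 libraries. *Ythdf3* (12.9 ± 0.626 CPM per kb, SD, n = 12) and *Alkbh5* (12.8 ± 0.819) were the most abundant and overlapped each other. *Ythdf1* (6.7 ± 0.624) and *Wtap* (6.33 ± 0.398) came next, and then *Ythdf2* (3.85 ± 0.41), *Fto* (3.73 ± 0.388) and *Ythdc1* (3.1 ± 0.379). The methyltransferase subunits *Mettl14* (1.42 ± 0.0717) and *Mettl3* (1.2 ± 0.144) and the helicase *Ythdc2* (0.864 ± 0.0865) were lowest, and within these last bands neighbours overlapped too. The 10 genes stood in the same order in the untreated cohort. The order depends on the length used. With that of the longest transcript, *Fto* came to 10.3, *Wtap* to 12.4, *Ythdc1* to 6.7 and *Mettl3* to 2.83 CPM per kb. Their exon unions of 13.0, 6.25, 13.7 and 5.08 kb are far longer than that transcript. *Mettl3* was then above *Mettl14* (1.46), while *Ythdf3* (13.5) stayed highest and *Ythdc2* (1.06) lowest.

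**Figure D1:**
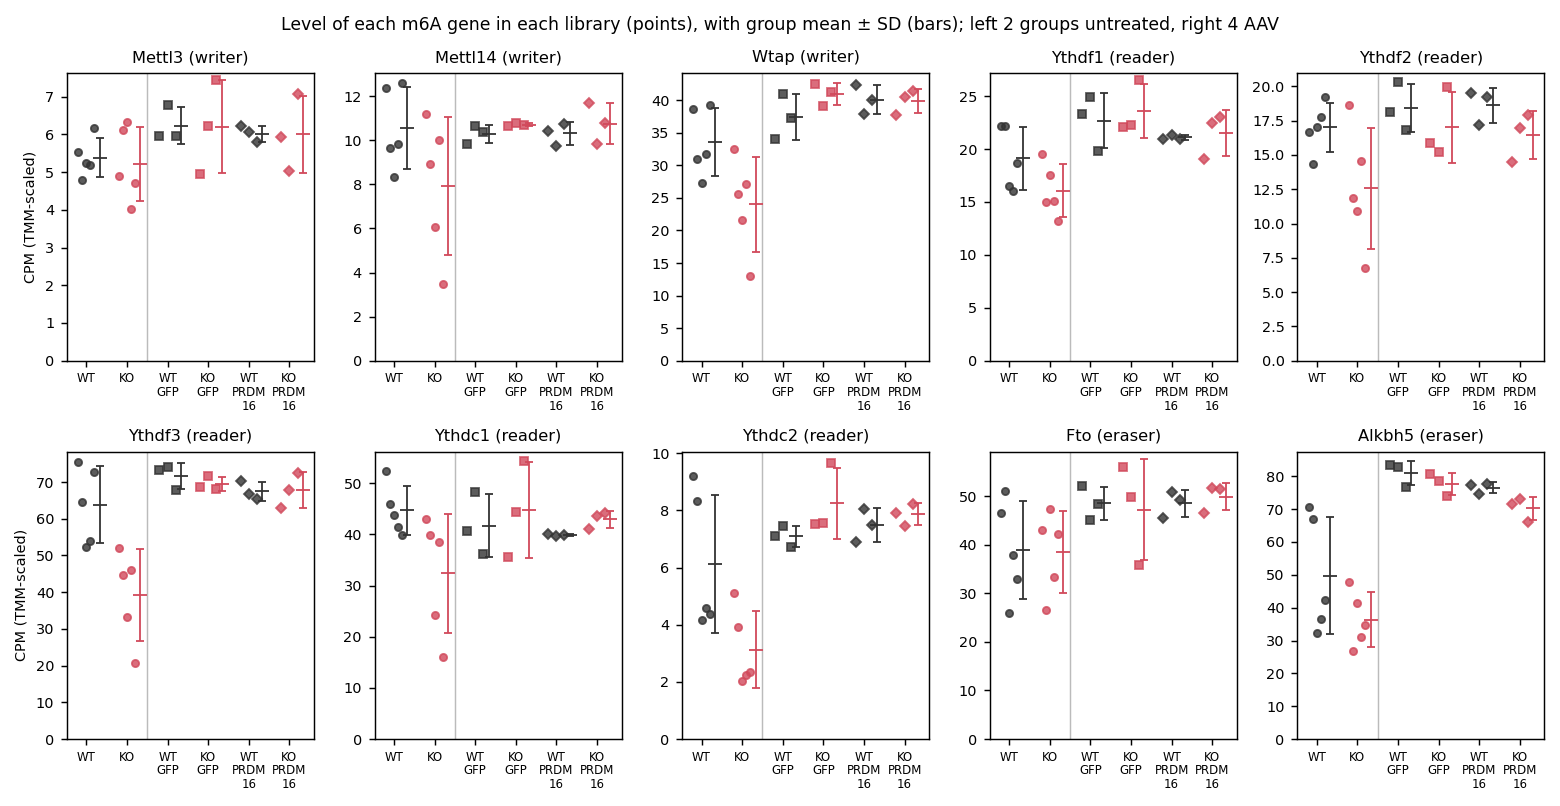
CPM (y axis, linear from 0) of each of the 10 genes in the 22 libraries, by group (x axis); points are libraries, bars the group mean ± SD, black WT and red KO, with the untreated cohort left of the grey line. Right of it the libraries of a gene spread 1.18-fold to 1.57-fold, most for *Fto*, and *Ythdc1* and *Fto* are widest in KO + AAV-GFP. Left of it the libraries spread up to 4.51-fold and several KO points lie low.

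None of the 10 genes passed the test in any comparison. At an FDR of 0.05 (edgeR's quasi-likelihood test, adjusted over all genes tested), 0 of 10 were called between untreated KO and WT mice, where 0% of all 17869 genes tested were called. None was called in the AAV cohort either, where the share of the 18899 genes tested was 0.0529% for KO against WT under AAV-GFP, 0.0476% for the same under AAV-PRDM16, 0% for AAV-PRDM16 against AAV-GFP in WT, 0% for the same in KO, 0.00529% for KO + AAV-PRDM16 against WT + AAV-GFP, 0% for the interaction of genotype and virus, 2.18% for genotype averaged over both viruses and 0.037% for virus averaged over both genotypes. DESeq2 also called 0 of 10 in each. Over all 9 comparisons and all alternative settings, the lowest FDR of any of the genes was 0.141, for *Ythdf2* and genotype averaged over both viruses under limma-voom with quality weights. At an unadjusted p under 0.05 the counts in the AAV cohort were 0 of 10 for KO against WT under AAV-GFP (9.18% of all genes), 0 under AAV-PRDM16 (13.7%), 0 for the virus in WT (7.29%), 0 for the virus in KO (6.41%), 1 for KO + AAV-PRDM16 against WT + AAV-GFP (7.93%), 0 for the interaction (3.19%), 0 for averaged genotype (18.3%) and 0 for averaged virus (9.09%). The looser rule used in the study, a 2-fold change with an FDR up to 0.5, was applied to the edgeR fit. In the untreated comparison 0 of 10 passed it, where 1924 genes (10.8% of all) did. The study's own list, made with the online tool iDEP, was shorter.

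The untreated cohort nevertheless gave all 10 genes a fitted level that was lower in KO, with log2 fold changes from -0.97 for *Ythdc2* to -0.01 for *Fto* and a median of -0.45, beside 0.04 over all genes tested. Without KO mouse 1, whose *Cpeb2* level was in the WT range, all 10 were again under 0, from -1.22 (*Ythdc2*) to -0.02 (*Mettl3*) with a median of -0.58, and none was called. In bulk tissue, fewer cells of a type and less RNA per cell cannot be told apart. Of the 10, 2 (*Ythdf3* and *Ythdc2*) had an unadjusted p under 0.05, both lower in KO, and 10.9% of all genes did so in that direction. *Ythdf3* was the only one of the 10 whose libraries did not overlap between genotypes, as was the case, lower in KO, for 0.907% of all genes. The muscle marker levels given above also differed between these libraries, and their part in the values was not tested. Y-linked transcripts were missing in WT mice 3 and 5 and in KO mice 1, 3, 4 and 5, so more often in KO. In a fit of only the libraries without them, none of the 10 was called. The log2 fold changes that moved there by more than their SE were those of *Ythdc2* (-0.53), *Fto* (0.52) and *Alkbh5* (0.08). The cause of these shifts was not tested.

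Among the writers, *Mettl3* (chr14:52294841-52305128) was the steadiest of the 10 genes in the untreated cohort. Untreated WT mice 1 to 5 stood at 5.52, 4.78, 5.24, 5.2 and 6.16 CPM and KO mice 1 to 5 at 4.9, 6.13, 6.33, 4.03 and 4.7 CPM. The KO values lay on both sides of the WT values, and the log2 fold change was -0.04 (SE 0.23, 95% interval -0.54 to 0.45, FDR = 0.927). *Tox4* overlaps 933 bases (18.38%) of its exons on the other strand, and whether the counting used strand is not given in the sources used here, so reads there may belong to either gene.

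*Mettl14* (chr3:123368297-123386108), the partner subunit, was more variable, at 12.4, 9.66, 8.33, 9.81 and 12.6 CPM in WT and 11.2, 8.94, 6.05, 10.0 and 3.5 CPM in KO. KO mouse 5 was lowest and KO mouse 3 next, and the other 3 KO libraries were within the WT range. *Wtap* (chr17:12966796-12994169) was at 38.7, 30.9, 27.3, 31.7 and 39.2 CPM in WT and 32.5, 25.6, 21.7, 27.2 and 13 CPM in KO. KO mouse 5 was again lowest, and of the KO mice only mouse 1 was within the WT range. The log2 fold changes were -0.41 (SE 0.30, FDR = 0.457) and -0.48 (SE 0.25, FDR = 0.340).

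Among the cytoplasmic readers, *Ythdf3* (chr3:16183212-16217037) differed most. Its WT libraries stood at 75.5, 64.4, 52.4, 54 and 72.8 CPM and its KO libraries at 52, 44.6, 33.3, 46 and 20.6 CPM. The highest KO mouse, mouse 1, was just under the lowest WT mouse, mouse 3. The means were 63.8 ± 10.5 CPM (SD, n = 5) and 39.3 ± 12.5 CPM (SD, n = 5), and the log2 fold change was -0.70 (SE 0.26, 95% interval -1.27 to -0.13, FDR = 0.305). Without KO mouse 5 it was -0.54.

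*Ythdf2* (chr4:132184912-132212303), the reader best known for mRNA decay, was at 16.7, 14.3, 17.1, 17.8 and 19.3 CPM in WT and 18.7, 11.9, 10.9, 14.6 and 6.79 CPM in KO. KO mice 1 and 4 were within the WT range and the other 3 under it, and the log2 fold change was -0.44 (SE 0.26, FDR = 0.376). *Ythdf1* (chr2:180904377-180920949), linked to translation, was at 16 to 22.2 CPM in WT and 13.2 to 19.6 CPM in KO, with a log2 fold change of -0.25 (SE 0.20, FDR = 0.492) that was -0.034 without WT mice 1 and 2. Its groups overlapped.

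Of the remaining YTH genes, *Ythdc2* (chr18:44827746-44889724) gave the largest estimate of the 10. It stood at 9.2, 8.32, 4.16, 4.58 and 4.39 CPM in WT mice 1 to 5 and 5.1, 3.93, 2.04, 2.22 and 2.36 CPM in KO mice 1 to 5. WT mice 1 and 2 were far above the other 3 WT mice, and KO mouse 1 was above those 3. The log2 fold change was -0.97 (SE 0.36, 95% interval -1.75 to -0.19, FDR = 0.305), and -0.43 without WT mice 1 and 2. *Ythdc1* (chr5:86804221-86836659) was at 52.3, 46, 43.9, 41.4 and 39.8 CPM in WT and 43, 39.9, 24.3, 38.6 and 16.1 CPM in KO, where mice 3 and 5 were far under the other 3 KO mice. Its log2 fold change was -0.46 (SE 0.27, FDR = 0.371). The lincRNA *Gm43055* shares 631 bases (4.62%) of its exons on the same strand.

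Of the erasers, *Fto* (chr8:91313525-91668439) was at 46.6, 51.1, 26, 37.9 and 33 CPM in WT and 43.1, 26.5, 47.4, 33.3 and 42.2 CPM in KO, with both groups spread over nearly the same range. Its log2 fold change was -0.01 (SE 0.24, 95% interval -0.54 to 0.52, FDR = 0.977). *Alkbh5* (chr11:60536381-60558512) was at 70.7, 67, 32.2, 36.5 and 42.2 CPM in WT and 47.8, 26.9, 41.3, 31 and 34.6 CPM in KO. Only WT mice 1 and 2 stood above the KO range, so that the log2 fold change of -0.45 (SE 0.27, FDR = 0.386) became 0.03 without these 2 mice. That of *Fto* became 0.31 without them and 0.52 in the 6 libraries without Y-linked transcripts, where *Alkbh5* was at 0.08.

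**Figure D2:**
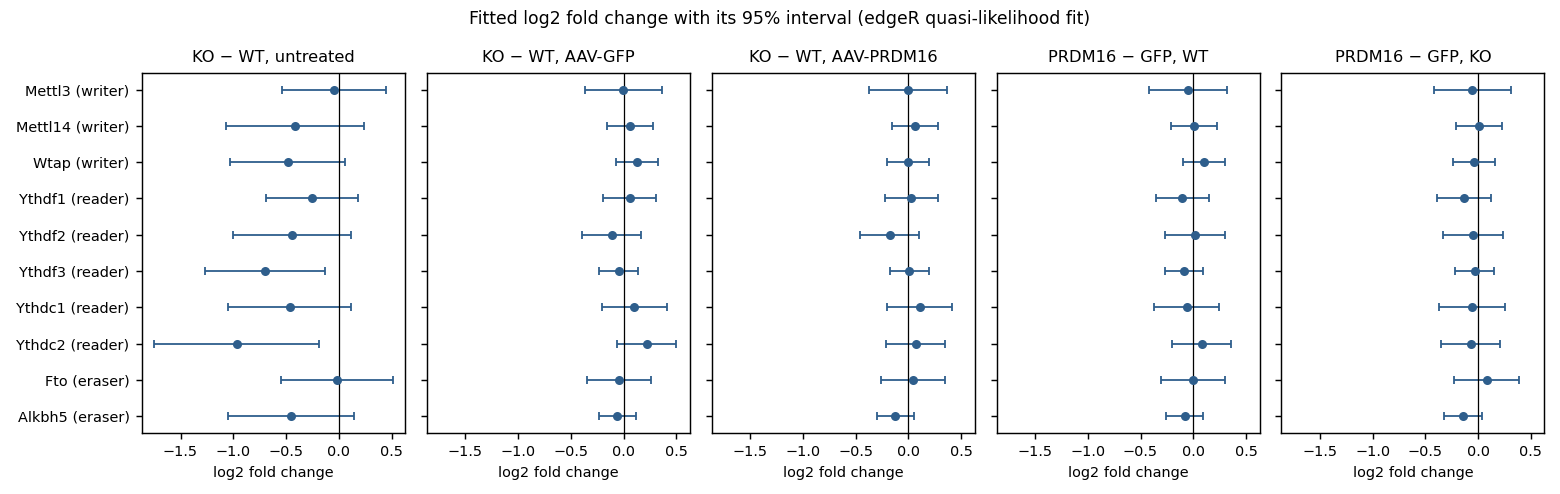
Fitted log2 fold change (x axis) of the 10 genes (y axis) with 95% intervals in 5 comparisons, KO minus WT or AAV-PRDM16 minus AAV-GFP. All 10 points lie left of 0 in the untreated cohort, with intervals that reach 0.44 to 0.78 to each side, while in the 4 AAV panels the points lie between -0.18 and 0.22 and every interval crosses 0.

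The spread of the untreated libraries moved with the base composition of the transcripts. Over 13049 genes, the level of a gene relative to the cohort changed with the GC content of its longest transcript by -0.41 to -0.06 log2 units per 10 points of GC in the 5 WT libraries, and by -0.15, 0.18, 0.34, 0.11 and 0.84 in KO mice 1 to 5. A positive slope means that genes of low GC content were low in that library. The slopes of the AAV libraries lay between -0.13 and 0.06. The 10 genes span 37.6% GC (*Ythdc1*) to 50.0% (*Alkbh5*). In KO mouse 5, the library of the steepest slope, the 6 genes of lowest GC content (*Ythdc1*, *Ythdf3*, *Wtap*, *Mettl14*, *Ythdc2* and *Ythdf2*) stood at 32.2% to 39.9% of the WT mean. The 4 of highest GC content were at 108.6% (*Fto*), 68.9% (*Ythdf1*), 87.3% (*Mettl3*) and 69.6% (*Alkbh5*) in the same mouse. KO mouse 5 was not the only low one for the first 6 genes, since without it their log2 fold changes were still -0.23 to -0.88.

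**Figure D3:**
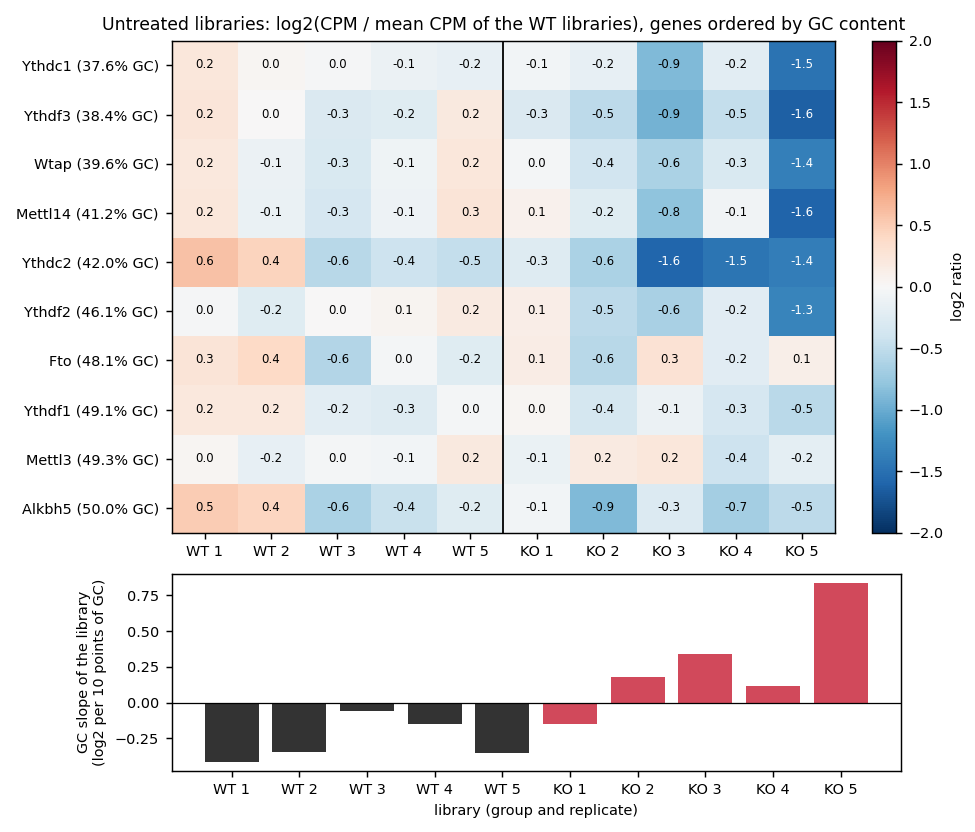
Top, log2 ratio of each gene's CPM to its WT mean (colour and number) in the 10 untreated libraries (columns), with genes ordered from low (37.6%) to high (50.0%) GC content; bottom, the GC slope of each library over 13049 genes (bars from 0, log2 per 10 points of GC, black WT and red KO). The dark blue cells of KO mouse 5 are those of the 6 genes of lowest GC content, and that library has the steepest slope, at 0.84.

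When the trends in GC content and length were taken out of each library before the test, the pattern of lower estimates did not remain. *Ythdc1* went from -0.46 to 0.23, *Wtap* from -0.48 to 0.11, *Mettl14* from -0.41 to 0.11 and *Fto* from -0.01 to 0.38. *Ythdf3* was then at -0.10, *Ythdc2* at -0.34, *Alkbh5* at -0.32, *Ythdf2* at -0.19, *Ythdf1* at -0.18 and *Mettl3* at 0.07, so 5 of the 10 were above 0 and 5 under it. Across the 10 genes, which share these libraries, Pearson's r of GC content with the log2 fold change was 0.604 before and -0.216 after, given as a description. Both trends were removed in 1 step, so their shares in these shifts were not separated. The length slopes were 0.24 and 0.27 log2 units per doubling of length in WT mice 1 and 2. In the other untreated libraries they lay between -0.15 and 0.08. Since 4 of 5 KO slopes for GC were positive and all 5 WT ones negative, the GC trend and the genotype cannot be told apart for these genes. The KO library with a negative slope was that of KO mouse 1 (-0.15), so the estimates without that mouse carry the same limit.

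**Figure D4:**
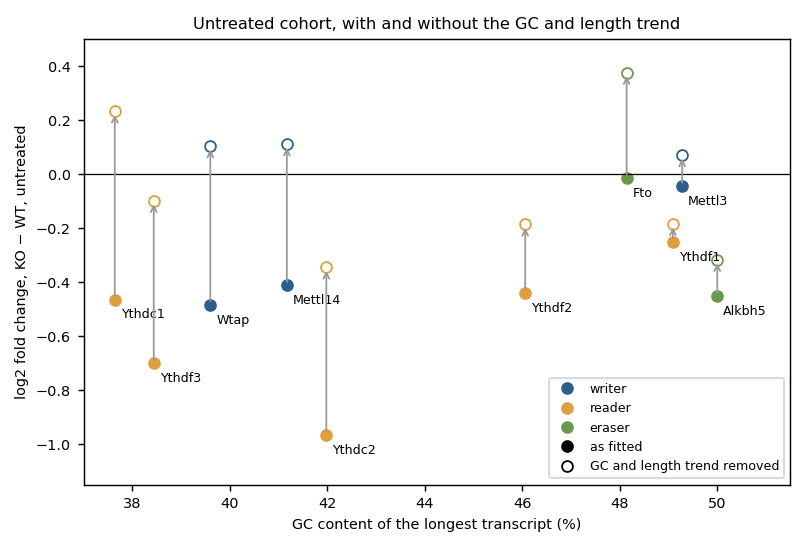
Log2 fold change of untreated KO against WT (y axis) against the GC content of the longest transcript in percent (x axis) for the 10 genes, coloured by role; filled points as fitted, open points after removal of the GC and length trend, joined by arrows. The arrows are longest on the left, at low GC content, where *Ythdc1* moved from -0.46 to 0.23.

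In the AAV cohort, where the question was what PRDM16 delivery does in either genotype, the same 10 genes varied less than in the untreated one. The highest of the 12 libraries was 1.18-fold (*Ythdf3*) to 1.57-fold (*Fto*) over the lowest, against 1.57-fold (*Mettl3*) to 4.51-fold (*Ythdc2*) over the 10 untreated libraries. The fitted log2 fold changes of the 5 comparisons between 2 groups lay between -0.21 and 0.22, and the widest interval reached 0.37 to each side. *Ythdf3*, which was at 20.6 to 52.0 CPM in untreated KO mice, was at 73.3, 74.1 and 67.7 CPM in WT + AAV-GFP, 68.6, 71.6 and 68.1 in KO + AAV-GFP, 70.3, 66.6 and 65.4 in WT + AAV-PRDM16 and 63, 67.9 and 72.5 in KO + AAV-PRDM16. Its log2 fold change of KO against WT was -0.05 (SE 0.08) under AAV-GFP and 0.01 (SE 0.08) under AAV-PRDM16. Whether the KO difference differed between the cohorts was not tested, since their counts were in separate tables and were normalised separately.

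Between KO and WT under AAV-GFP, *Ythdc2* gave the largest estimate. It stood at 7.12, 7.45 and 6.72 CPM in WT and 7.52, 7.55 and 9.67 CPM in KO, with all KO libraries above all WT ones. The log2 fold change was 0.22 (SE 0.13, 95% interval -0.06 to 0.50, FDR = 0.669), of the opposite sign to the untreated cohort, and 0.083 without KO + AAV-GFP replicate 3. *Mettl14* also did not overlap, at 9.84 to 10.6 CPM in WT and 10.7 to 10.8 CPM in KO, for a log2 fold change of 0.06 (SE 0.10). These 2 of 10 stand beside 6.51% of all genes that were higher in KO without overlap.

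KO + AAV-GFP replicate 3 stood apart for *Ythdc1* and *Fto*. *Ythdc1* was at 35.6, 44.3 and 54.3 CPM in the 3 KO + AAV-GFP mice, and *Fto* at 56, 49.9 and 35.8 CPM. The third mouse was thus the highest of all 12 AAV libraries for the nuclear reader and the lowest for the demethylase. It was also the highest for *Mettl3* (7.45 CPM), *Ythdf1* (26.5 CPM) and *Ythdc2* (9.67 CPM). Its TMM factor was 1.21, against 0.90 to 1.04 in the other AAV libraries. Without it, the log2 fold change of KO against WT under AAV-GFP went from 0.10 to -0.06 for *Ythdc1* and from -0.04 to 0.12 for *Fto*.

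Between KO and WT under AAV-PRDM16, *Ythdc1* was higher in KO without overlap (40.1, 39.7 and 39.9 CPM in WT and 41.1, 43.6 and 44.2 in KO) and *Alkbh5* lower (77.5, 74.5 and 77.6 CPM in WT and 71.7, 73 and 66.2 in KO). The log2 fold changes were 0.11 (SE 0.14, FDR = 0.796) and -0.12 (SE 0.08, FDR = 0.542). Of all genes, 11.5% were higher and 11.2% lower in KO without overlap, so 1 of 10 each way is near the background. With the GC and length trend removed, *Ythdc1* was at -0.10.

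Between AAV-PRDM16 and AAV-GFP, none of the 10 genes had groups without overlap in WT mice, where 14.2% of all genes did. In KO mice *Alkbh5* was the only one, lower under AAV-PRDM16, as were 6.05% of all genes. The log2 fold changes lay between -0.11 and 0.10 in WT, between -0.14 and 0.08 in KO, and between -0.15 and 0.08 for their difference, the interaction term. The WT values include WT + AAV-PRDM16 replicate 3 (45.9 CPM of *Prdm16*), little above the AAV-GFP libraries for that gene. *Wtap* had the smallest p of the 10 for the interaction, at a log2 difference of -0.14 (SE 0.13, FDR = 0.9998).

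*Alkbh5* was the one gene of the 10 with an unadjusted p under 0.05 in the AAV cohort, for KO + AAV-PRDM16 against WT + AAV-GFP. Its libraries stood at 83.4, 82.8 and 76.8 CPM in WT + AAV-GFP, 77.5, 74.5 and 77.6 in WT + AAV-PRDM16, 80.7, 78.5 and 73.9 in KO + AAV-GFP and 71.7, 73 and 66.2 in KO + AAV-PRDM16. All 3 KO + AAV-PRDM16 libraries were below the 3 of WT + AAV-GFP. The log2 fold change against WT + AAV-GFP was -0.21 (SE 0.08, 95% interval -0.38 to -0.03, unadjusted p = 0.0269 and FDR = 0.570 by edgeR), and 7.09% of all genes were lower in this comparison without overlap, and 4.42% had an unadjusted p under 0.05 in this direction. *Ythdc2* was higher without overlap in the same comparison, as were 6.15% of all genes, with a log2 fold change of 0.15 (SE 0.13).

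The wider m6A machinery was taken as 10 further writer genes, among them the other subunits of the METTL3 complex and the methyltransferases of ribosomal RNA, and 12 further RNA-binding proteins described as readers. Of these 22 genes 20 were tested, and none passed an FDR of 0.05 in any of the 9 comparisons. In the untreated cohort, 16 of the 20 had a lower and 4 a higher estimate in KO. Their median log2 fold change was -0.42, beside 0.04 over all genes tested. These are the same libraries as for the 10 genes, and here too the GC trend and the genotype cannot be told apart. Of the 20, 6 had an unadjusted p under 0.05, beside 15.9% of all genes. A 2-fold change with an FDR up to 0.5 was met by 2 of the 20, beside 10.8% of all genes. The smallest p was that of *Lrpprc*, a mitochondrial RNA-binding protein, at 183, 156, 71.9, 85.2 and 108 CPM in WT and 94, 37.6, 54.9, 66.9 and 39.9 CPM in KO, a log2 fold change of -1.04 (SE 0.34, FDR = 0.305). *Virma*, the largest subunit of the writer complex, gave -0.64 (SE 0.25, FDR = 0.305). *Trmt112*, the partner of METTL5, had an estimate in the other direction, at 0.85 (SE 0.34, FDR = 0.305).

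For the AAV libraries, the smallest p among the 20 genes for KO against WT was that of *Elavl1* under AAV-GFP (log2 fold change 0.16, SE 0.09, FDR = 0.659), of *Zc3h13*, a scaffold of the writer complex, under AAV-PRDM16 (0.20, SE 0.10, FDR = 0.412) and of *Fmr1* for genotype averaged over both viruses (0.14, SE 0.07, FDR = 0.313). For virus averaged over both genotypes it was that of *Mettl5*, which methylates 18S ribosomal RNA, at 0.26 (SE 0.09, FDR = 0.325). *Mettl5* stood at 5.23, 5.04 and 5.19 CPM in WT + AAV-GFP, 4.56, 4.2 and 5.0 in KO + AAV-GFP, 6.34, 6.26 and 5.92 in WT + AAV-PRDM16 and 5.21, 6.24 and 5.01 in KO + AAV-PRDM16. The 3 WT + AAV-PRDM16 libraries were above the 3 of WT + AAV-GFP, and 14.2% of all genes did not overlap there in either direction. The KO + AAV-PRDM16 libraries were also above those of KO + AAV-GFP, and the latter were below those of WT + AAV-GFP. The shares of all genes for these 2 separations are not given here. Under AAV-PRDM16 the genotypes overlapped. In the untreated cohort KO was below WT (at most 5.90 against at least 5.94 CPM), as were 0.907% of all genes. The KO + AAV-PRDM16 libraries overlapped those of WT + AAV-GFP. *Mettl5* also had the smallest p for the virus within WT (0.26, SE 0.13, FDR = 0.726) and within KO (0.26, SE 0.13, FDR = 0.908). *Rbmx* (0.21, SE 0.15, FDR = 0.824) was the corresponding gene for KO + AAV-PRDM16 against WT + AAV-GFP, and *Elavl1* (-0.18, SE 0.13, FDR = 0.9998) for the interaction.

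How the 10 genes varied together was described by the correlation of log2 CPM after the group mean was subtracted, over all 22 libraries. *Mettl14*, *Wtap* and *Ythdf3* varied most closely together, with Pearson's r of 0.954, 0.949 and 0.950 for the 3 pairs. This came from the untreated libraries, where the 3 values were 0.986, 0.982 and 0.976, while over the 12 AAV libraries they were 0.179, -0.307 and 0.352. The erasers *Fto* and *Alkbh5* had an r of 0.7997, with 0.877 over the untreated and 0.401 over the AAV libraries. The lowest r was that of *Fto* with *Ythdc1* (-0.318), with -0.222 over the untreated and -0.768 over the AAV libraries. The points share library and base composition, and no test is given.

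Among 11002 other genes, those most like each of the 10 by the same measure were as follows for the writers: *Hira*, *Wdr82* and *Unk* for *Mettl3* (r = 0.760, 0.752 and 0.750), *Fra10ac1*, *Wtap* and *Nom1* for *Mettl14* (0.968, 0.954 and 0.952), and *Fra10ac1*, *Mettl14* and *Sppl2a* for *Wtap* (0.965, 0.954 and 0.952). *Mettl3* was the least like any other gene. For the readers they were *Rprd1b*, *Fam168b* and *Tox4* for *Ythdf1* (0.873, 0.869 and 0.843), *Riok2*, *Usp38* and *Rrp15* for *Ythdf2* (0.913, 0.910 and 0.908), *Thoc2*, *N4bp2l2* and *Cbx1* for *Ythdf3* (0.965, 0.954 and 0.952), *Hnrnpu*, *Sfpq* and *Zfp131* for *Ythdc1* (0.972, 0.956 and 0.950), and *Lats1*, *Eea1* and *Zbtb1* for *Ythdc2* (0.940, 0.936 and 0.935). For the erasers they were *Parm1*, *Slc24a3* and *Stom* for *Fto* (0.936, 0.930 and 0.915) and *Eif4g1*, *Faf2* and *Dnajc16* for *Alkbh5* (0.9748, 0.968 and 0.966). These lists pool both cohorts, were not made for each cohort alone, and share library and base composition too. For *Mettl14* with *Wtap*, r was 0.986 over the untreated and 0.179 over the AAV libraries.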

How the data were processed

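BAT RNA of 22 mice was made into mRNA libraries (SureSelect XT HS2 kit) and sequenced on an Illumina instrument. The authors deposited 1 table of whole-number read counts per gene for each cohort, without normalization. The submitters' processing notes name bcl2fastq 2.20, Trimmomatic 0.36, HISAT2 and GRCm38.p6, while the counting tool and the use of strand are not given in the sources used here. Groups and replicate numbers came from the sample labels.

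From the counts onward, edgeR 4.0.16 in R 4.3.3 was used: filterByExpr (17869 and 18899 genes kept), TMM scaling and the two-sided quasi-likelihood test, with Benjamini-Hochberg adjustment (FDR) over all genes tested. The untreated fit held 10 libraries and the AAV fit 12. The SE of a log2 fold change was its size divided by the square root of F. Symbols, exons, GC content and UTRs came from GENCODE M21 (GRCm38). Scripts were tested on simulated data. The named genes are the 10, *Cpeb2*, *Prdm16*, any further m6A gene at an FDR of 0.05, the further gene with the smallest p in each comparison, and for each of the 10 the 3 genes of highest correlation among those of at least 1 CPM on average in each cohort. *Virma*, *Trmt112* and *Gm43055* were named after their values were seen. The 10 genes and the lists were chosen with earlier results of these data known.

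The comparisons were repeated with DESeq2 1.42.0, without the filter, with RLE scaling, by limma-voom (limma 3.58.1) with quality weights, with removal of each library's GC and length trend (splines of 4 degrees of freedom), the replicate number as a block, each library left out, only the groups compared, an FDR of 0.1, the untreated cohort without WT mice 1 and 2 (whose names differ in style in a supplementary table), with a covariate for Y-linked transcripts or with only the libraries lacking them (summed level under 10 CPM), and the length of the longest transcript.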

Additional observations from a re-analysis of the deposited data

How the results depend on the processing

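None of the 10 m6A genes and none of the 20 further ones passed an FDR of 0.05 in any setting run, so only estimates and counts over all genes moved. With the GC and length trend removed, the log2 fold change of untreated KO against WT turned to 0.11 for *Mettl14*, 0.11 for *Wtap*, 0.23 for *Ythdc1* and 0.38 for *Fto*. Without WT mice 1 and 2 it turned to 0.31 for *Fto* and 0.030 for *Alkbh5*, and in the libraries without Y-linked transcripts to 0.52 and 0.075. The same trend removal turned KO against WT under AAV-PRDM16 to -0.063 for *Mettl14*, -0.16 for *Ythdf3* and -0.095 for *Ythdc1*, KO + AAV-PRDM16 against WT + AAV-GFP to -0.055 for *Mettl14*, -0.039 for *Wtap* and -0.16 for *Ythdc1*, and genotype averaged over both viruses to -0.038 for *Mettl14*, -0.047 for *Wtap* and -0.045 for *Ythdc1*. Leaving out each library in turn, KO against WT under AAV-GFP ran from -0.064 to 0.24 for *Ythdc1* and from -0.18 to 0.12 for *Fto*, and AAV-PRDM16 against AAV-GFP in KO from -0.19 to 0.10 and from -0.089 to 0.22, with the sign turned without KO + AAV-GFP replicate 3 and, for *Fto* in the first comparison, also without WT + AAV-GFP replicate 1. The cause of these turns was not tested.

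Over all genes, the numbers called at an FDR of 0.05 were 0 for untreated KO against WT (2836 at an unadjusted p under 0.05, and 0 by DESeq2), 10 for KO against WT under AAV-GFP, 9 under AAV-PRDM16, 0 for virus in WT, 0 for virus in KO, 1 for KO + AAV-PRDM16 against WT + AAV-GFP, 0 for the interaction, 412 for genotype averaged over both viruses and 7 for virus averaged over both genotypes. DESeq2 called 243, 619, 152, 266, 157, 1, 1584 and 602 for the last 8. Limma-voom called 545 under AAV-PRDM16, 1 for virus in WT and 1269 for averaged genotype. With the GC and length trend removed there were 3 under AAV-GFP, 2 for KO + AAV-PRDM16 against WT + AAV-GFP, 240 for averaged genotype and 0 for averaged virus. Without the filter, averaged genotype gave 250 and averaged virus 144, and RLE scaling gave 76 for the latter. With only the groups compared there were 0 under AAV-GFP, 2 under AAV-PRDM16 and 0 for KO + AAV-PRDM16 against WT + AAV-GFP. The replicate number as a block gave 1 under AAV-GFP, 5 under AAV-PRDM16 and 2 for averaged virus. Same-numbered mice did not deviate together (correlations -0.29 to 0.11 untreated and -0.09 to 0.15 with AAV). Whether mice shared a litter is not given by the labels and was not modelled. Leaving out each library in turn gave 0 to 8 under AAV-GFP, 0 to 15 under AAV-PRDM16, 0 to 2 for virus in WT, 0 to 2 for virus in KO, 0 to 3 for KO + AAV-PRDM16 against WT + AAV-GFP, 0 to 1 for the interaction, 89 to 590 for averaged genotype and 0 to 352 for averaged virus, the highest without WT + AAV-GFP replicate 1. The intervals of the 10 genes reached 0.44 to 0.78 to each side in the untreated and 0.18 to 0.37 in 2-group AAV comparisons.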
